A study of Rattus norvegicus with 12 samples.

Results

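The genes described here build the calcium cycle of the sarcoplasmic reticulum (SR), the internal calcium store of heart muscle: Atp2a2, Pln, Ryr2, Casq2, Trdn, Jph2 and Slc8a1. They were taken by symbol from a table of 17602 genes, all 7 were found with 1 row each, and all 7 passed the filter on low values (1 TPM or more in 4 or more libraries of 12). TPM is a gene's length-corrected share of its library's transcripts, so levels can be compared between genes, and the deposited table keeps no sequencing depth. Cardiac muscle RNA came from 3 groups of 4 samples of ZSF1 rats: lean controls, obese rats, and obese rats whose drinking water held 24 mM nicotinamide (NAM), a precursor of NAD+, while they were 8 to 20 weeks old. All groups share the ZSF1 strain, a hybrid of hypertensive and Zucker ancestry in which obese animals inherit a faulty leptin receptor from each parent and lean animals do not; the labels call the obesity diet-induced and give no age at sampling, sex, heart region or batch. The study used obese ZSF1 rats as a model of the risk factors behind heart failure with a normal ejection fraction (HFpEF) and asked about NAD+ in diastolic dysfunction. No lean group received NAM, so an action of NAM in lean hearts was not analysed here, and since no label states that a sample is an animal of its own, the p-values reflect the spread between the sequenced samples alone, which may be technical.

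In each heartbeat a small entry of calcium through the cell membrane opens the ryanodine receptor RYR2, and the SR releases a much larger amount that makes the filaments contract. Relaxation follows when the pump SERCA2, made from Atp2a2, returns calcium to the SR against the brake phospholamban (Pln), and when the sodium-calcium exchanger (Slc8a1) carries the rest out of the cell. Calsequestrin (Casq2) binds calcium inside the store, triadin (Trdn) ties it to the release channel, and junctophilin 2 (Jph2) holds the SR against the T-tubule, the inward fold of the membrane where release is triggered. Less SERCA2 for a given amount of phospholamban is a long-described feature of failing myocardium.

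Expression of 6 of the 7 genes was lower in obese than in lean hearts on the deposited scale, and 6 of 7 were higher with NAM than without it. Casq2 was the gene not called between obese and lean, and Jph2 the gene not called between NAM-treated and untreated obese hearts. Many other genes moved the same way: 16.5% of the 10526 genes tested were called lower in obese than in lean hearts, and 28.8% were called higher with NAM (limma, Benjamini-Hochberg adjusted p below 0.05). In either direction the shares were 16.8% and 29.2%. The median gene differed by -0.20 log2 units in obese against lean hearts and by 0.25 with NAM against without, so each library was also divided by its median ratio to the geometric mean library over the tested genes, called rescaled below. After rescaling, Jph2 and Atp2a2 were called lower in obese than lean hearts, where 0.751% of all genes were called lower and 1.34% in either direction. Between NAM-treated and untreated obese hearts limma called 0 of the 7 after rescaling, where 0.713% of all genes were called in either direction. At an unadjusted limma p below 0.05, 6 of the 7 lay higher with NAM in that comparison. After rescaling, 6 of the 7 also lay lower in obese than lean hearts at that limit. How many of all genes passed it was not counted, so these unadjusted counts have no background. Between NAM-treated and untreated obese hearts, limma with array weights or without its trend also called 0 of the 7. It called 1 (Atp2a2) when genes were kept by a mean of 5 TPM or more, and 2 (Atp2a2 and Slc8a1) without obese library 2. Of all genes, 117 of 5004 and 156 of 10454 were called in these last 2 fits. With array weights and without the trend, 77 and 16 of 10526 were. Against lean hearts, NAM-treated obese hearts differed in the same pair of genes on both scales, Casq2 higher and Jph2 lower, beside 1.83% of genes called in either direction as deposited (0.865% higher, 0.969% lower) and 2.36% after rescaling (0.770% higher, 1.59% lower). The obese libraries stand in both the comparison with lean and the comparison with NAM, so a low obese level enters both with opposite sign.

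**Figure D1:**
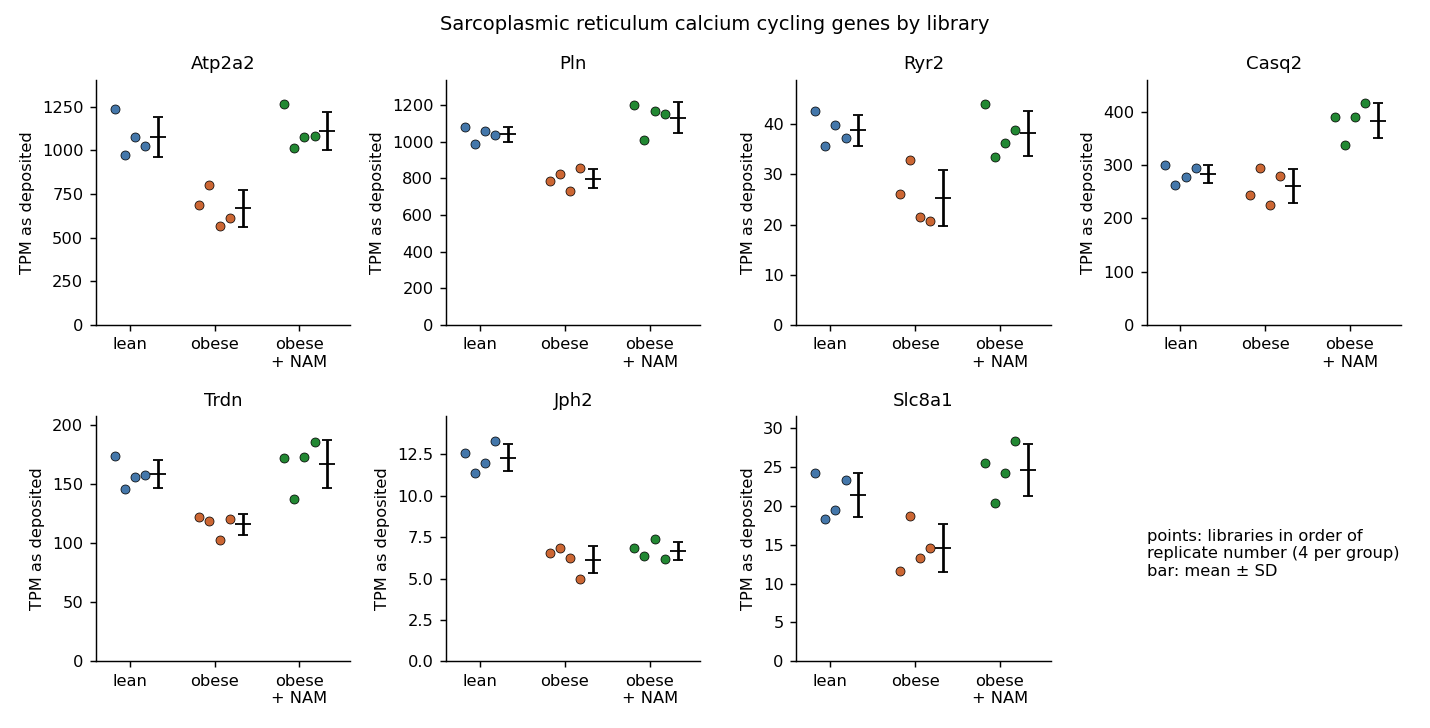
TPM as deposited (linear axes from 0) of the 7 genes in each library of the lean, obese and NAM-treated obese groups, with the group mean and SD (n = 4) as a bar. The mean of each of the 7 genes is lowest in obese hearts, though not every difference was called. Casq2 lies highest in NAM-treated hearts, and Jph2 lies between 4.95 and 7.37 TPM in both obese groups against 11.4 to 13.3 TPM in lean hearts.

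The libraries differed in general composition. Mitochondrially encoded transcripts took 66.2 to 70.4% of TPM in lean, 74.6 to 75.5% in obese and 69.9 to 73.8% with NAM, and the rescaling factors were 1.03 to 1.09, 0.841 to 0.928 and 0.994 to 1.17. The summed TPM of 10 ventricular cardiomyocyte markers, all detected in every library, was 25549 to 29720 in lean, 17885 to 20575 in obese and 21762 to 24253 with NAM. After rescaling, these sums were 24531 to 27158 in lean, 20438 to 24462 in obese and 20668 to 21890 with NAM. The rescaled range with NAM thus lay within the obese range, and both lay below lean. The skeletal muscle markers (8 of 10 found) summed to 277 to 351 TPM in lean, 165 to 209 TPM in obese and 210 to 230 TPM with NAM. Most of that sum was Ckm, a creatine kinase that heart muscle also expresses, at means of 283, 176 and 204 TPM and called lower in obese than lean hearts as deposited (-0.68, limma adjusted p = 0.0021). Myh4, a fast skeletal myosin, reached at most 0.314 TPM and Ryr1, the skeletal release channel, at most 0.0642 TPM. The atrial light chain Myl7 lay at 30.4, 2.17, 5.30 and 99.3 TPM in obese libraries 1 to 4 and at 192, 2.13, 2.89 and 2.49 TPM in NAM-treated libraries 1 to 4, against 0.677 to 8.50 TPM in lean hearts. Over all 9 atrial markers the sums were 112 to 184 TPM in lean and 301, 310, 134 and 604 TPM in obese libraries 1 to 4, and 1148, 209, 196 and 249 TPM in NAM-treated libraries 1 to 4. Summed macrophage markers (9 of 9 found) ranged over 68.7 to 105 TPM in lean, 42.4 to 197 TPM in obese and 97.0 to 106 TPM with NAM, fibroblast markers (9 of 10 found) over 479 to 520, 413 to 767 and 416 to 533 TPM, and erythroid markers (5 of 7 found) over 724 to 1596, 1662 to 4020 and 487 to 2302 TPM. Their part in the results below was not tested; values without the 3 libraries above 20 TPM of Myl7, and without obese libraries 3 and 4, which were highest in the other three lists among the obese, are given where they change a call. In bulk samples, fewer cardiomyocytes and less RNA per cardiomyocyte cannot be told apart.

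Atp2a2, the calcium pump, and Pln, its inhibitor, were the most abundant of the 7 in every group. Their lean levels were 1077 ± 113 and 1041 ± 40.8 TPM (mean ± SD, n = 4), which did not differ beyond their spread. Casq2 followed at 284 ± 16.7 TPM, then Trdn at 159 ± 11.6 TPM, Ryr2 at 38.8 ± 3.10 TPM, Slc8a1 at 21.3 ± 2.84 TPM and Jph2 at 12.3 ± 0.805 TPM, each apart from its neighbours in all 4 lean libraries. The order of the last 5 was the same in all 3 groups, whereas Pln stood above Atp2a2 in 2 of 4 lean, 4 of 4 obese and 2 of 4 NAM-treated libraries. Together the 7 genes took 0.244 to 0.287% of TPM in lean, 0.166 to 0.210% in obese and 0.256 to 0.311% with NAM.

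Atp2a2 is described first, with the sequence upstream of its start, because it was one of 2 genes called lower in obese hearts on both scales. The 250 bases before the RefSeq start in the GRCr8 assembly are chr12:39733269-39733518 on the plus strand and hold 80.0% G or C, against a median of 51.2% over 33469 RefSeq promoters. Capitals mark GC boxes (GGGCGG on either strand), the motif read by SP family factors, of which Atp2a2 has 3 and which 30.5% of all promoters hold at least once. Such a window before an annotated start need not hold the start used in heart. The window of Slc8a1 is in doubt for that reason, so counts over the 7 windows rest on 6 without it.
Atp2a2: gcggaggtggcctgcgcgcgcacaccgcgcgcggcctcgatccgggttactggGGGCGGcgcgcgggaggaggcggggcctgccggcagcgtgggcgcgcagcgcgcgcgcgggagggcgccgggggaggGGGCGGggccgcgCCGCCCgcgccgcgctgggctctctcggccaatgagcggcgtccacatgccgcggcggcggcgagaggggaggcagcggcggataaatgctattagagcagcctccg

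Atp2a2 measured 1235, 975, 1074 and 1023 TPM in lean libraries 1 to 4, and 687, 803, 564 and 614 TPM in obese libraries 1 to 4. With NAM the values were 1266, 1014, 1074 and 1082 TPM. Every obese library lay below every lean and every NAM-treated library, and the lean and NAM-treated ranges overlapped. On the log2(TPM + 1) scale Atp2a2 fell by 0.70 in obese against lean hearts (SE 0.11, limma adjusted p = 0.00309) and rose by 0.74 with NAM (adjusted p = 0.00292). NAM-treated and lean hearts differed by 0.04 (95% interval -0.20 to 0.29, adjusted p = 0.885). After rescaling, the fall in obese hearts was 0.44 (adjusted p = 0.0427) and the difference with NAM was 0.42 (95% interval 0.22 to 0.62, adjusted p = 0.0651). With 1 library left out at a time the rescaled change lay between -0.51 and -0.36 in all 12 fits, and it was called in 2 of them (without obese 1 or obese 2), with an adjusted p of up to 0.123 without lean 1. Without obese 2, the library with the highest obese Atp2a2 level, the rescaled difference with NAM was 0.48 and was called (adjusted p = 0.0283).

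Pln, whose protein slows the pump until protein kinase A or CaMKII phosphorylates it, measured 1082, 986, 1057 and 1038 TPM in lean hearts and 788, 825, 731 and 855 TPM in obese hearts. NAM-treated hearts held 1200, 1010, 1167 and 1153 TPM. As with the pump, no obese library reached the lowest lean or NAM-treated library. Pln fell by 0.38 in obese against lean hearts (SE 0.07, limma adjusted p = 0.00525) and rose by 0.50 with NAM (adjusted p = 0.00292) on the deposited scale. After rescaling these became -0.12 (95% interval -0.24 to -0.01, adjusted p = 0.276) and 0.18 (0.06 to 0.29, adjusted p = 0.142), neither of which passed.

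The ratio of Atp2a2 to Pln within a library does not depend on either scale. It was 1.14, 0.989, 1.02 and 0.986 in lean hearts, 0.873, 0.973, 0.771 and 0.718 in obese hearts and 1.05, 1.004, 0.921 and 0.939 with NAM. All 4 obese ratios lay below the 4 lean ratios, whereas obese library 2 lay inside the NAM-treated range. The mean was 1.03 ± 0.0738 in lean and 0.834 ± 0.113 in obese hearts, a difference of -19.3% (exact 2-sided permutation p = 0.0286, the smallest that 4 against 4 libraries allow, and 0.0714 after Benjamini-Hochberg adjustment over 15 tests of 5 ratios), and so did not pass 0.05 after adjustment. In NAM-treated hearts the mean was 0.979 ± 0.0615, 17.5% above obese (exact permutation p = 0.0857, adjusted p = 0.184) and 5.18% below lean (exact permutation p = 0.343, adjusted p = 0.468). Without obese 3 and 4, the libraries with the lowest ratios and the highest fibroblast, macrophage and erythroid markers, the difference between obese and lean was -0.110 in place of -0.199. The exact permutation p was 0.133, the smallest that 2 against 4 libraries allow, so it could not have passed. The 2 obese ratios left still lay below all 4 lean ratios. The direct inhibitor sarcolipin (Sln), in the ventricle much scarcer than Pln, lay at 10.8 to 48.0 TPM in lean hearts, at 53.8, 15.9, 33.4 and 206 TPM in obese hearts and at 381, 10.95, 25.1 and 30.8 TPM with NAM, with its highest values in the libraries highest in Myl7.

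**Figure D2:**
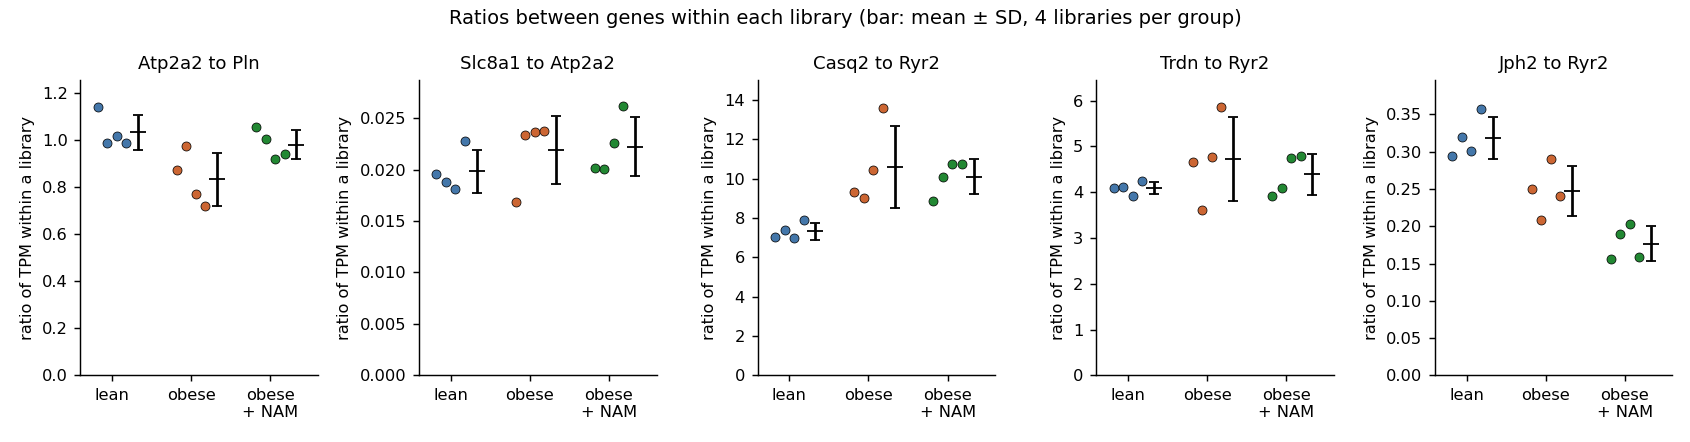
Ratios of TPM between pairs of genes within each library (linear axes from 0), with the group mean and SD (n = 4) as a bar. The Atp2a2 to Pln ratio averages 1.03 in lean, 0.834 in obese and 0.979 with NAM, and the Jph2 to Ryr2 ratio averages 0.318, 0.247 and 0.177 with no overlap between groups.

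Ryr2, the release channel, was the gene of the 7 most like Atp2a2 across the libraries (below) and has the other window with GC boxes among the 7 searched, 3 of them, shown in capitals, of which 2 overlap. The 250 bases before its start are chr17:63081277-63081526 in GRCr8, plus strand, with 72.0% G or C.
Ryr2: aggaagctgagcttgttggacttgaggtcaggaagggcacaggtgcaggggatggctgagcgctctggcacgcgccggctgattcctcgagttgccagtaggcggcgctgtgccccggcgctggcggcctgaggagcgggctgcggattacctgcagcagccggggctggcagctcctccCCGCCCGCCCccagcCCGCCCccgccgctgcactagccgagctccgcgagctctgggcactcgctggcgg

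Ryr2 measured 42.6, 35.6, 39.9 and 37.2 TPM in lean, 26.2, 32.9, 21.5 and 20.6 TPM in obese and 44.1, 33.5, 36.3 and 38.8 TPM with NAM. The groups separated by a narrow margin, since obese 2 lay just under the lowest lean and NAM-treated libraries. Ryr2 fell by 0.62 in obese hearts (SE 0.13, limma adjusted p = 0.00981) and rose by 0.59 with NAM (adjusted p = 0.00827) as deposited. Rescaled, the differences were -0.37 (95% interval -0.62 to -0.12, adjusted p = 0.129) and 0.28 (0.03 to 0.53, adjusted p = 0.262), and obese 2 lay within the lean range. Among all tested genes Atp2a2 ranked 2nd in likeness to Ryr2, by the root mean square difference of centred rescaled log2 values over the 12 libraries (0.0861, against a median of 0.290). In turn Ryr2 ranked 5th for Atp2a2, after LOC103693780 (0.0519), Coa5 (0.0785), Fyco1 (0.0787) and Usp13 (0.0855).

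Casq2 codes for the protein that stores calcium next to the channel, and it was called higher in NAM-treated than in lean hearts on both scales. Its RefSeq window was the one of the 7 searched with a match to the MEF2 consensus, the A and T rich motif of a muscle transcription factor family, shown in capitals. Of all promoters 2.96% hold that match, and the window is chr2:192214306-192214555 in GRCr8, plus strand, with 46.4% G or C.
Casq2: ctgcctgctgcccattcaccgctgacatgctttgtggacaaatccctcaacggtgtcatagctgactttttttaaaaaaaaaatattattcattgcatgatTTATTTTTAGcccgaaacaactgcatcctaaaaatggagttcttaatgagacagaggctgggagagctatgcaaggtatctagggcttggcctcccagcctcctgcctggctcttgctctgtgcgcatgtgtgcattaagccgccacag

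Casq2 measured 301, 264, 278 and 294 TPM in lean hearts and 244, 296, 225 and 280 TPM in obese hearts. In NAM-treated hearts it measured 391, 338, 391 and 417 TPM, above all 8 other libraries, whereas the lean and obese ranges overlapped. The difference between obese and lean was -0.13 as deposited (95% interval -0.33 to 0.08, limma adjusted p = 0.374) and 0.13 after rescaling (-0.03 to 0.29, adjusted p = 0.411), so its sign depended on the scale. With NAM, Casq2 rose by 0.56 over obese hearts as deposited (adjusted p = 0.00343), and the rescaled difference was 0.23 (adjusted p = 0.153). Against lean hearts it rose by 0.43 as deposited (adjusted p = 0.0410) and by 0.37 after rescaling (adjusted p = 0.0243). Those calls were made in 3 and 7 of 12 fits with 1 library left out, with adjusted p up to 0.119 and 0.0786, both without NAM-treated 4, which has the highest level. Neither call was made without the 3 libraries above 20 TPM of Myl7. The differences were then 0.42 as deposited (limma adjusted p = 0.150) and 0.39 rescaled (adjusted p = 0.0695). Of all 10261 genes tested in that setting, 57 and 107 were called.

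Trdn, the triadin anchor between calsequestrin and the channel, measured 174, 146, 156 and 157 TPM in lean, 122, 119, 103 and 121 TPM in obese and 172, 138, 173 and 186 TPM with NAM. All obese values lay below all others. Trdn fell by 0.45 in obese hearts (SE 0.10, limma adjusted p = 0.0107) and rose by 0.52 with NAM (adjusted p = 0.00446) on the deposited scale. The rescaled differences were -0.19 (adjusted p = 0.239) and 0.19 (adjusted p = 0.253), with overlapping groups. In the measure of likeness used above, Pln ranked 4th for Trdn among all genes (0.0722, against a median of 0.231), although the closest genes to Pln itself were Vdac3 (0.0421), Agtpbp1 (0.0478), Ccar1 (0.0484), Dusp3 (0.0486) and Eif4g2 (0.0487).

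Within libraries, the Casq2 to Ryr2 ratio of every obese and NAM-treated library lay above those of all lean libraries. It was 7.34 ± 0.432 in lean, 10.6 ± 2.09 in obese and 10.1 ± 0.881 with NAM (n = 4 each), with lean values of 6.97 to 7.92 below all 8 others, which began at 8.88. Both differences from lean had an exact permutation p = 0.0286 (adjusted p = 0.0714), and obese and NAM-treated hearts differed by -4.59% (exact permutation p = 0.771, adjusted p = 0.827). The Trdn to Ryr2 ratio was 4.09 ± 0.127 in lean, 4.73 ± 0.922 in obese and 4.39 ± 0.448 with NAM, with overlapping ranges in all 3 comparisons.

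Jph2, the junctophilin that bridges T-tubule and SR, had the largest fall of the 7 genes in obese hearts and was also called lower in NAM-treated than in lean hearts. Its 250 bases before the start, chr3:172477922-172478171 in GRCr8 on the minus strand, hold 57.2% G or C and are shown in contrast to those of Atp2a2 and Ryr2. They hold none of the motifs searched on both strands: GC box, E-box (CANNTG, in 65.5% of all promoters), GATAA (23.5%), TATAAA (12.9%), MEF2 consensus and CArG box (1.497%).
Jph2: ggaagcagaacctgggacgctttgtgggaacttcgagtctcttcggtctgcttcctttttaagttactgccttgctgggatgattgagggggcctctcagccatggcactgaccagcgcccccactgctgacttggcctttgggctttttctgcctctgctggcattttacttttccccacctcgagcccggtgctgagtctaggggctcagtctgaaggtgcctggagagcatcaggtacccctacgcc

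Jph2 measured 12.6, 11.4, 12.0 and 13.3 TPM in lean hearts. It measured 6.53, 6.84, 6.23 and 4.95 TPM in obese hearts and 6.86, 6.34, 7.37 and 6.18 TPM with NAM. Both obese groups lay wholly below the lean group and overlapped each other. Jph2 fell by 0.90 in obese against lean hearts (SE 0.10, limma adjusted p = 0.000713) and by 0.67 after rescaling (adjusted p = 0.00670), and it fell by 0.79 and 0.84 in NAM-treated against lean hearts (adjusted p = 0.00243 and 0.00159). All 4 calls were made in 12 of 12 fits with 1 library left out. The rescaled call between obese and lean was not made without obese 3 and 4 (-0.57) or without the 3 libraries above 20 TPM of Myl7 (-0.62), where of all genes 22 of 10365 and 0 of 10261 were called with 2 obese libraries left. NAM-treated and untreated obese hearts differed by 0.11 as deposited (95% interval -0.11 to 0.33, adjusted p = 0.425) and -0.17 after rescaling (-0.38 to 0.04, adjusted p = 0.421), so no direction can be given. Among all tested genes the change of Jph2 in obese against lean hearts stood at percentile 1.42 after rescaling, and that of Atp2a2 at percentile 3.46, counted from the strongest fall.

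Per Ryr2 transcript, its neighbour in the dyad, Jph2 was highest in lean and lowest with NAM. From obese to NAM-treated hearts the mean of Ryr2 went from 25.3 to 38.2 TPM and that of Jph2 from 6.14 to 6.69 TPM. Jph2 itself was called on neither scale in that comparison. The Jph2 to Ryr2 ratio was 0.295, 0.3199, 0.301 and 0.357 in lean, 0.250, 0.208, 0.290 and 0.240 in obese and 0.156, 0.189, 0.203 and 0.159 with NAM. None of the 3 groups overlapped another, though obese 3 came close to the lowest lean library and NAM-treated 3 to the lowest obese library. The mean differed by -22.4% in obese against lean, -28.4% in NAM-treated against obese and -44.5% in NAM-treated against lean hearts, each with exact permutation p = 0.0286 and adjusted p = 0.0714, which does not pass 0.05. None of the 15 ratio tests passed after adjustment, and 4 against 4 libraries could not have given a raw p under 0.0286.

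Slc8a1, the exchanger that carries calcium out across the cell membrane, measured 24.1, 18.3, 19.5 and 23.3 TPM in lean hearts and 11.6, 18.7, 13.3 and 14.6 TPM in obese hearts. In NAM-treated hearts it measured 25.5, 20.3, 24.2 and 28.3 TPM. Obese 2 lay within the lean range, and all obese values lay below all NAM-treated values. Slc8a1 fell by 0.53 in obese against lean hearts (SE 0.14, limma adjusted p = 0.0244) and rose by 0.73 with NAM (adjusted p = 0.00477) as deposited. The fall was not called without lean 1, lean 4, obese 1 or obese 3, with an adjusted p of up to 0.0729. Rescaled, the differences were -0.29 (95% interval -0.54 to -0.04, adjusted p = 0.230) and 0.42 (0.17 to 0.67, adjusted p = 0.116), and the latter was called without obese 2 (0.52, adjusted p = 0.0402). The Slc8a1 to Atp2a2 ratio, extrusion against uptake, averaged 0.0198 ± 0.00206 in lean, 0.0219 ± 0.00335 in obese and 0.0222 ± 0.00286 with NAM, with overlapping ranges and obese 1 far below the other obese libraries at 0.0169.

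Counted together as deposited, 5 of the 7 genes lay wholly lower in obese than lean libraries, as did 23.2% of all tested genes. In NAM-treated against obese hearts 6 lay wholly higher, as did 28.0%. After rescaling, 2 (Atp2a2 and Jph2) lay wholly lower in obese than lean libraries, as did 5.31% of all tested genes. With NAM against obese, 4 (Atp2a2, Pln, Casq2 and Slc8a1) then lay wholly higher, as did 4.87%, though limma called 0 of the 7. The median change of the 7 was -0.53 and 0.56 as deposited, beside -0.20 and 0.25 for all tested genes, and -0.29 and 0.23 after rescaling, beside 0.00 and -0.01. Between NAM-treated and lean hearts their median was 0.07 as deposited and 0.00 after rescaling, beside 0.05 and 0.00. For the 10 ventricular cardiomyocyte markers, the median change in obese against lean hearts was -0.51 as deposited and -0.26 after rescaling. A fall of this size in obese hearts was therefore not particular to the 7. In NAM-treated against obese hearts the medians of these markers were 0.30 and -0.02.

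Atp2a2, Pln and Jph2 were the genes still called lower in obese hearts as deposited when 2 obese libraries were left, either without obese 3 and 4 or without the 3 libraries above 20 TPM of Myl7 (obese 1, obese 4 and NAM-treated 1). Ryr2, Slc8a1 and Trdn then lay at -0.39, -0.49 and -0.39 without obese 3 and 4 (limma adjusted p = 0.117, 0.143 and 0.0874) and at -0.53, -0.40 and -0.52 without the libraries high in Myl7 (adjusted p = 0.0858, 0.201 and 0.0620). With NAM against obese hearts, Ryr2 was not called without obese 3 and 4 (0.36, adjusted p = 0.0937). Without the libraries high in Myl7, the deposited difference with NAM was 0.65 for Atp2a2, 0.51 for Pln, 0.43 for Ryr2, 0.56 for Casq2, 0.57 for Trdn and 0.58 for Slc8a1, and their adjusted p values lay between 0.0780 and 0.151. In that setting, for NAM against obese, limma called 0 of the 10261 genes tested in all, and for obese against lean 378. Without obese 3 and 4, of 10365 genes tested, 352 passed for obese against lean and 894 for NAM against obese.

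**Figure D3:**
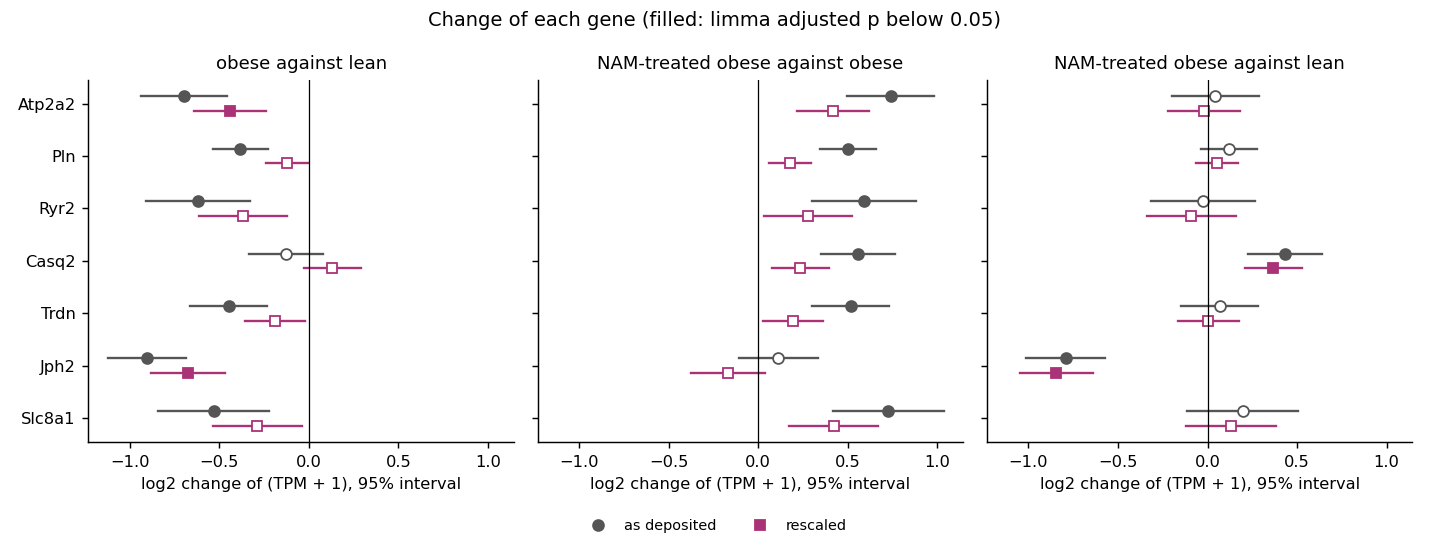
Log2 change of TPM + 1 for the 7 genes in the 3 comparisons, as deposited (grey circles) and rescaled (purple squares), with 95% intervals, filled where the limma adjusted p is below 0.05. Jph2 stays near -0.79 to -0.90 as deposited in both comparisons with lean hearts, and rescaling moves Atp2a2 from -0.70 to -0.44 between obese and lean hearts.

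Other genes of calcium handling were counted from 8 lists with 86 genes, of which 78 were in the table and 64 were tested; Strit1, Mrln and Fkbp1b are among those not analysed here. As deposited, limma called 25 of the 64 lower and 0 higher in obese against lean hearts (39 and 0 at an unadjusted p below 0.05), and 34 higher and 0 lower with NAM (43 and 0 unadjusted), where 16.5% of all tested genes were called lower and 28.8% higher. Rescaled, 4 were lower in obese hearts and 0 higher (16 and 1 unadjusted), 1 was higher and 1 lower with NAM (22 and 3 unadjusted), and 1 was lower and 0 higher in NAM-treated than lean hearts (6 and 5 unadjusted). Of all tested genes, 0.751% were called lower in obese hearts, 0.713% were called in either direction with NAM and 1.59% were called lower in NAM-treated than lean hearts. The counts of single lists below are to be read against the same shares. All of these shares are at a limma adjusted p below 0.05. The share of all genes at the unadjusted limit was not counted, so the unadjusted counts have no background here. The median change of the 64 in obese against lean hearts was -0.31 as deposited and -0.08 after rescaling, and with NAM 0.36 and 0.10.

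Among dyad and T-tubule genes, 1 was called in both of these comparisons after rescaling. Cmya5 (myospryn), which anchors the dyad in mouse heart, lay at 36.1 ± 2.09 TPM in lean, 22.2 ± 2.97 TPM in obese and 41.2 ± 4.61 TPM with NAM. After rescaling it fell by 0.44 in obese hearts (limma adjusted p = 0.0392) and rose by 0.55 with NAM (adjusted p = 0.0235), where Jph2 differed by -0.17 and was not called. Of the 5 tested dyad and T-tubule genes, 2 were called lower in obese hearts as deposited, Cmya5 and the caveolin Cav3 (-0.29, adjusted p = 0.0384), and the membrane repair gene Dysf was called higher with NAM as deposited (0.35, adjusted p = 0.0338).

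Of 11 tested genes of sarcolemmal calcium and sodium transport, 5 were called lower in obese hearts as deposited and 3 after rescaling. Among these 3, phospholemman (Fxyd1), a regulator of the sodium pump, fell by 0.35 after rescaling (limma adjusted p = 0.0151). Fxyd1 lay at 234 ± 19.0, 153 ± 8.75 and 177 ± 8.95 TPM without obesity, with obesity and with NAM, and after rescaling it was also lower in NAM-treated than lean hearts (-0.47, adjusted p = 0.00208). Cacna1c, the pore of the L-type channel whose current triggers release, was called higher with NAM as deposited (0.62, adjusted p = 0.00423) at 4.45 ± 0.375, 3.51 ± 0.793 and 5.86 ± 0.278 TPM.

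Of 10 tested partners of the release channel, 5 were called lower in obese hearts and 4 higher with NAM as deposited, among them Akap6, an anchor of kinases at the channel (-0.62 and 0.72, limma adjusted p = 0.00698 and 0.00359), and Tmem38a, the TRIC-A potassium channel of the SR (-0.58 and 0.53, adjusted p = 0.00309 and 0.00352). Sorcin (Sri), which inhibits the channel, was the one rescaled call, lower with NAM (-0.48, adjusted p = 0.0345), at 15.4 ± 1.83, 15.6 ± 1.07 and 13.8 ± 2.05 TPM without obesity, with obesity and with NAM. Of 6 lumenal calcium binding genes, 3 were called lower in obese hearts and 3 higher with NAM as deposited. Hrc, which links the store to triadin, had changes of -0.46 and 0.68 (adjusted p = 0.0112 and 0.00292), and Srl, sarcalumenin, of -0.48 and 0.60 (adjusted p = 0.00791 and 0.00305).

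Kinases, phosphatases and their regulators formed the longest list. Of 17 tested, 8 were called lower in obese hearts and 13 higher with NAM as deposited, beside 16.5% and 28.8% of all tested genes, including Prkar1a, a regulatory subunit of protein kinase A (-0.52 and 0.53, limma adjusted p = 0.00261 and 0.00292), and Camk2d, the main cardiac CaMKII gene, whose kinase phosphorylates phospholamban and the release channel (-0.34 and 0.52, adjusted p = 0.0253 and 0.00359). Among the 4 tested pump relatives and regulators, Ppp1r3a, a glycogen-targeting phosphatase subunit found at the SR, was called lower in obese hearts and higher with NAM as deposited (-0.51 and 0.54, adjusted p = 0.0180 and 0.0103). Atp2a3, the other pump gene measured, lay near 1 TPM, at 1.03 ± 0.187 TPM in lean hearts and 0.919 ± 0.174 TPM in obese hearts. Of 4 inositol trisphosphate receptor and store-operated entry genes, Itpr1 was called higher with NAM as deposited (0.33, adjusted p = 0.0357). Of 7 mitochondrial calcium transport genes, 1 was called lower in obese hearts and 2 higher with NAM, and Letm1 was called lower in obese hearts and higher with NAM as deposited (-0.63 and 0.44, adjusted p = 0.0120 and 0.0381). For the pump relatives, the inositol trisphosphate receptor list and the mitochondrial list, such small counts are near the shares of all genes and are no result about these lists. The same holds with NAM as deposited for the release channel partners, with 4 of 10 called higher and a median change of 0.23. It holds there too for the dyad and T-tubule list, with 2 of 5 and 0.24, beside 28.8% and 0.25 for all tested genes.

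**Figure D4:**
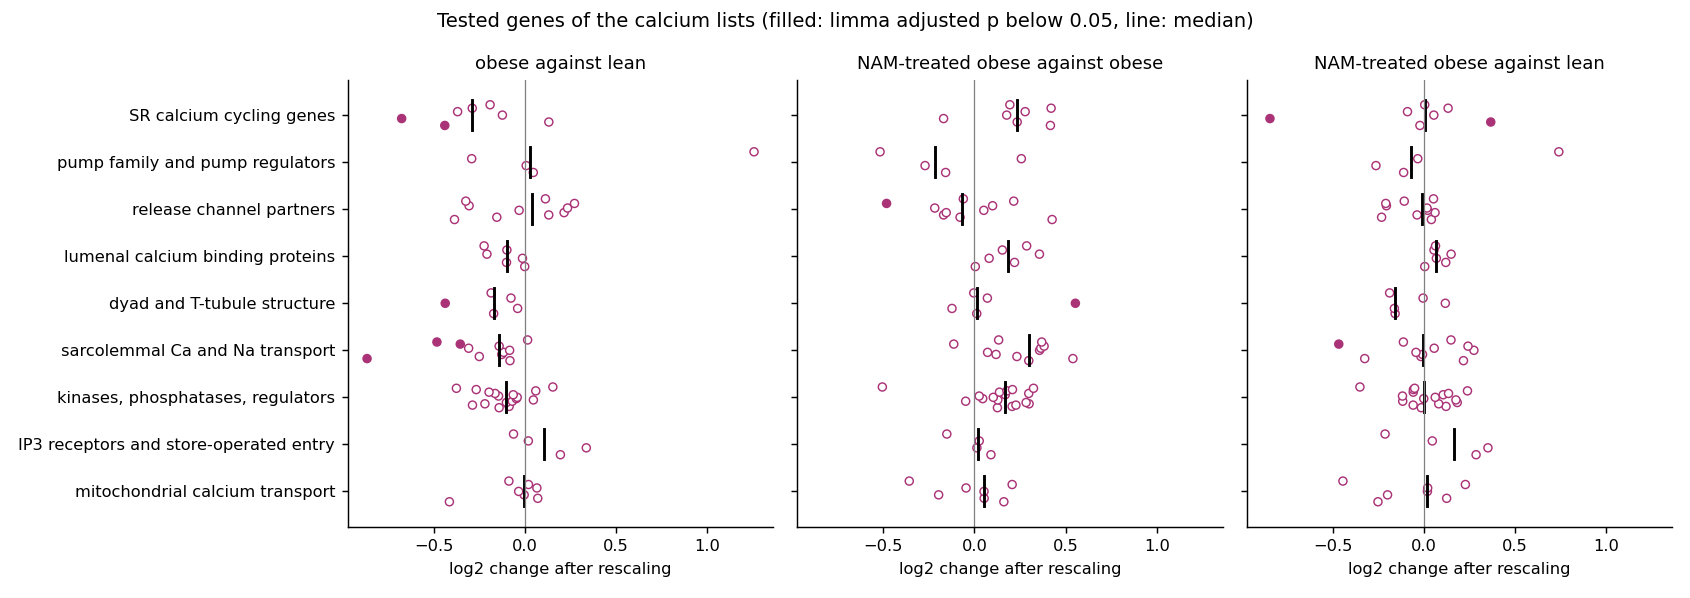
Log2 change after rescaling of each tested gene in the 7 SR calcium cycling genes and the 8 other calcium lists, in the 3 comparisons, filled where the limma adjusted p is below 0.05, with the list median as a line. Filled points in obese against lean hearts include Jph2, Atp2a2, Cmya5 and Fxyd1, and the isolated point at 1.26 is Sln.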

How the data were processed

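Per the labels' protocols, total RNA from cardiac muscle was isolated with TRIzol and RNeasy kits, and directional NEBNext Ultra II libraries were made. The authors deposited 1 table of TPM per gene for 12 libraries, per the file headers. The submitters' processing notes name the Rnor_6.0 assembly and limma, with an aligner and quantifier not given in the sources used here. Sequencing depth is lost in TPM and is unknown here, so the spread between samples sets the precision. The 4 NAM-treated columns hold a text mark in place of a number for 498 genes, which were left out of 17602 (17104 used; all 7 members have numbers), and whether these columns were made together with the others is not stated.

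The filter of 1 TPM or more in 4 or more of 12 libraries kept 10526 genes. On log2(TPM + 1), limma 3.58.1 in R 4.3.3 (1 mean per group, 12 libraries, trended and robust eBayes with statmod 1.5.0, 9 residual degrees of freedom) tested the 3 comparisons 2-sided, with Benjamini-Hochberg adjustment over all kept genes and a threshold of 0.05. Fold changes on this scale understate changes of low genes such as Jph2. The same fit was run after median-of-ratios rescaling. Ratios used exact permutation tests (scipy 1.17.1), adjusted over 15 tests. The members and the gene lists were chosen with earlier results of these data known. Named genes are the 7 members, rescaled calls and up to 3 genes per list by p as deposited (some are not reported here), and the 5 genes most like Atp2a2 and Pln. Myl7, Myh4, Ryr1, Sln and Atp2a3 were named as markers or relatives, and Camk2d, Cacna1c, Dysf and Itpr1 also fall under the rule in at least 1 comparison. Promoters were matched by symbol (7 of 7) in a RefSeq table of GRCr8, a newer build than the files', and motifs were searched on both strands. That of Pln, Trdn and Slc8a1 is not printed.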

Additional observations from a re-analysis of the deposited data

Results flagged for a closer look

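The Slc8a1 to Atp2a2 ratio of obese library 1 was 0.0169, whereas the other 3 obese libraries lay between 0.0233 and 0.0237. Its gap to the nearest of them was 0.941 of the whole range of the group, above Dixon's 95% limit for 4 samples. Of 57 groups of 4 values tested this way, 1 was beyond the limit, and chance gives about 1 in 20. The same library had the lowest Slc8a1 level among the obese (11.6 TPM) and the second highest Atp2a2 level (687 TPM).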

How the results depend on the processing

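Scale decides most calls of the 7 genes. Against lean, the count of genes called in obese hearts was 6 as deposited, 2 after median-of-ratios rescaling and 1 both with quantile normalization and with TPM recomputed without mitochondrially encoded genes. With NAM against obese it was 6 as deposited, 0 after rescaling or quantile normalization, and 5 without mitochondrially encoded genes, where Pln was also called against lean. Of all genes, quantile normalization called 126 of 10526 between obese and lean and 66 with NAM. Without mitochondrially encoded genes 83 of 10513 were called between obese and lean, 323 with NAM and 741 between NAM-treated and lean hearts. Leaving out the 3 libraries above 20 TPM of Myl7 (an alternative chosen after seeing the data, as was leaving out obese 3 and 4) gave counts of 3 as deposited and 0 after rescaling for obese against lean, 0 and 0 with NAM against obese, and 1 and 1 for NAM-treated against lean. Leaving out obese 3 and 4 gave 3 as deposited and 0 after rescaling for obese against lean. Both settings remove 2 obese libraries of 4, and over all genes the calls for obese against lean went from 1770 to 378 and 352 as deposited and from 141 to 0 and 22 rescaled. As deposited, NAM-treated against lean gave 1 call in place of 2 with no filter, with eBayes without trend and robust and with the replicate block. Each time the lost call was Casq2. Of all genes, 124 of 17104 were called with no filter, and 129 and 132 of 10526 in the eBayes and block fits. After rescaling, these settings kept both calls, beside 145 of 17104 and 181 and 185 of 10526 genes called. Rescaled obese against lean gave 1 in place of 2 with no filter, with eBayes without trend and robust and in a fit to the 2 groups alone, each time by the loss of Atp2a2. Of all genes, 72 of 17104 were called with no filter, and 85 and 43 of 10526 in the eBayes and 2-group fits. Rescaled NAM-treated against obese gave 1 when genes were kept by a mean of 5 TPM or more, where 117 of 5004 genes were called. Pseudocounts of 0.1 and 5, array weights and size factors from nuclear genes changed no count by over 1.5 times.

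With 1 library left out in turn, obese against lean gave 5 to 6 calls as deposited and 1 to 2 rescaled. NAM against obese gave 6 in every fit and 0 to 2, and NAM-treated against lean 1 to 2 on both scales. Of all 10415 to 10474 genes tested, these fits called 1006 to 1966 as deposited and 27 to 224 rescaled for obese against lean. The counts were 1867 to 3640 and 10 to 156 for NAM against obese, and 69 to 188 and 105 to 291 for NAM-treated against lean. The Atp2a2 to Pln difference between obese and lean ranged from -0.246 to -0.161, and was -0.161 without the libraries above 20 TPM of Myl7 and -0.110 without obese 3 and 4. In these last 2 settings the exact permutation p was 0.133, the smallest that 2 against 4 libraries allow. With the replicate number as a block the difference was -0.199 (exact p = 0.125, the smallest that 4 pairs allow). Same-numbered libraries correlated in their deviations from the group means by -0.0500 to 0.0745, all under 0.1, so the numbers were not taken to pair samples.

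Signs changed in 19 single-gene values, none of them called. Casq2 in obese against lean turned from -0.13 as deposited to 0.11 (quantile), 0.18 (without mitochondrially encoded genes) and 0.13 (rescaled). Jph2 with NAM turned from 0.11 to -0.15, -0.067 and -0.17 under the same settings and to -0.00294 without obese 3 and 4. In NAM-treated against lean hearts, Ryr2 turned to 0.078 without mitochondrially encoded genes and ranged from -0.096 to 0.032 with 1 library left out, and Atp2a2 turned to -0.0216 after rescaling and to -0.0218 without the libraries above 20 TPM of Myl7. With 1 library left out Atp2a2 ranged from -0.0218 to 0.11 as deposited and from -0.057 to 0.028 rescaled, and rescaled Trdn from -0.038 to 0.047. The cause of these changes was not tested. Depth is unknown, so its limits could not be measured.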
